A study of Mus musculus with 6 samples.

Results

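Collagens are the main structural proteins of the extracellular matrix, and in the adrenal gland they make up the fibrous capsule, the sheaths of vessels and nerves, and the sheets that surround cords of steroid-producing cells. Each collagen molecule is a triple helix of 3 chains, and each kind of chain is the product of its own gene. Fibrillar collagens (types I, II, III, V, XI, XXIV and XXVII) pack into the rope-like fibrils of connective tissue. Type IV forms the network of basement membranes, to which types XV and XVIII are attached. The remaining types make beaded filaments, decorate fibrils, anchor epithelia or span the cell membrane.

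The genes described here are those with a symbol made of Col, a type number and a chain number. All probe sets that the array's annotation assigns to exactly 1 such gene were taken: 82 of the 44935 probe sets analysed. They stand for 42 of the 18163 genes with a probe set of their own. By type, 11 of the genes were classed as fibrillar, 8 as basement membrane (types IV, XV and XVIII) and 23 as other. No measured value entered this choice. The choice says nothing of place either: RNA came from whole adrenal glands, so the values do not separate capsule from stroma, vessels or attached tissue.

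RNA was taken 54 h (3 arrays) and 46 h (3 arrays) after lights off, in constant darkness that followed 2 weeks of entrainment to a light-dark cycle. Every sample came from male mice, 3 months old, with the genotype Per2Brdm1/Cry1-/- on a C57BL6x129Sv background, so the absence of a working clock that the labels describe was common to both time points. There was no array of animals with intact Per2 and Cry1 among those analysed here, and the labels state neither the animal behind each array nor whether glands were pooled. The arrays of each time point are called replicates 1, B and C, of which only B and C carry a letter in the labels, and values of single arrays are always given in that order. Differences in how the glands of each time were collected, dissected or labelled cannot be told apart from time.

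The defining markers of the adrenal gland were bright. Star, which carries cholesterol into mitochondria, averaged 16876 units at 54h and 17478 units at 46h, and Th, the first enzyme of catecholamine synthesis, 8785 units and 9097 units. Among cells that make matrix, all 14 listed markers of fibroblasts, capsule and pericytes had a probe set, none averaged 0, and their summed level was 24847 to 29427 units at 54h and 25365 to 28040 units at 46h. Array medians lay between 204 and 217 units and the highest value in the table was 17879 units. With 3 arrays per time point, the number of arrays limits the precision.

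Of the 82 collagen probe sets, 54 had a mean above the 40th percentile of all probe sets, the level below which a probe set was not tested. They covered 34 of the 42 genes, and 28 probe sets lay under the filter. No collagen passed the test of 54h against 46h: 0 of 54 probe sets had a limma adjusted p under 0.05, where 31 of 26961 probe sets did, 0.115% of those tested. At an unadjusted p under 0.05, limma gave 6 of the 54 collagen probe sets (11.1%), against 10.1% of all probe sets. These 6 were 1 higher at 54h and 5 lower, against shares of 4.34% higher and 5.75% lower among all probe sets. Counted by the brightest probe set of each gene, 4 of 34 collagen genes (11.8%) were at that level, against 10.3% of all genes. Values at 54h and 46h had no overlap in 8 of 54 collagen probe sets (14.8%), against 15.5% of all. Of those 8, 2 were higher at 54h (6.48% of all probe sets were) and 6 lower (9.05% of all). Without 46h replicate B, the collagen probe sets lower at an unadjusted p under 0.05 in limma numbered 13 in place of 5, or 24.1% of the 54, against 6.49% of all probe sets in the same fit. In the full comparison, the share of collagens that differed in either direction was close to that of all probe sets. By direction, 9.26% of the collagen probe sets were lower at that unadjusted level (5.75% of all) and 1.85% higher (4.34% of all). The fibrillar class held most of the lower ones, with 4 of its 16 probe sets (25%), and 5 of the 16 (31.2%) read lower at 54h without overlap, against 9.05% of all. The 4 were of different genes, Col3a1, Col5a1, Col5a3 and Col27a1, while the 5 held more than 1 probe set of both Col5a1 and Col27a1. None passed the adjusted threshold. Array weights in limma, which give less noisy arrays more say, moved the adjusted count to 4 higher and 9 lower, or 24.1% of the 54, while 3466 of all probe sets (12.9%) then passed. The lowest adjusted p belonged to Col5a3, described below.

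By class, the median log2 change lay below 0 for fibrillar and other collagens and above 0 for basement membrane collagens, and the classes were not tested against each other. A log2 change is the 54h mean minus the 46h mean on log2(intensity + 16), and each gene is read from its brightest probe set. Its median was -0.16 over the 9 fibrillar genes tested, 0.03 over the 8 basement membrane genes and -0.06 over the 17 others, against -0.02 over all 13780 genes tested. Among fibrillar genes 8 of 9 had a change below 0, among basement membrane genes 4 of 8 and among others 12 of 17; over all genes 56.7% did. The fibrillar median was -0.24 without 46h replicate B and -0.086 without 46h replicate 1. Counted by probe set, 36 of 54 collagens had a change below 0, against 55.6% of all probe sets. Scaling of the arrays moved these counts in part. Whether arrays were centred on their medians or quantile normalized, 8 of the 9 fibrillar genes and 2 of 8 basement membrane genes were below 0. Of all probe sets at an unadjusted p under 0.05, limma put 1170 higher and 1549 lower as deposited, 1727 higher and 1209 lower with centring, and 1590 higher and 1531 lower with quantile normalization. For collagen probe sets that split was 1 higher and 5 lower as deposited, 4 and 5 with centring, and 1 and 5 with quantile normalization. The 95% confidence interval of the change excluded a 2-fold difference for 33 of 34 genes and a 1.5-fold difference for 27.

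**Figure D1:**
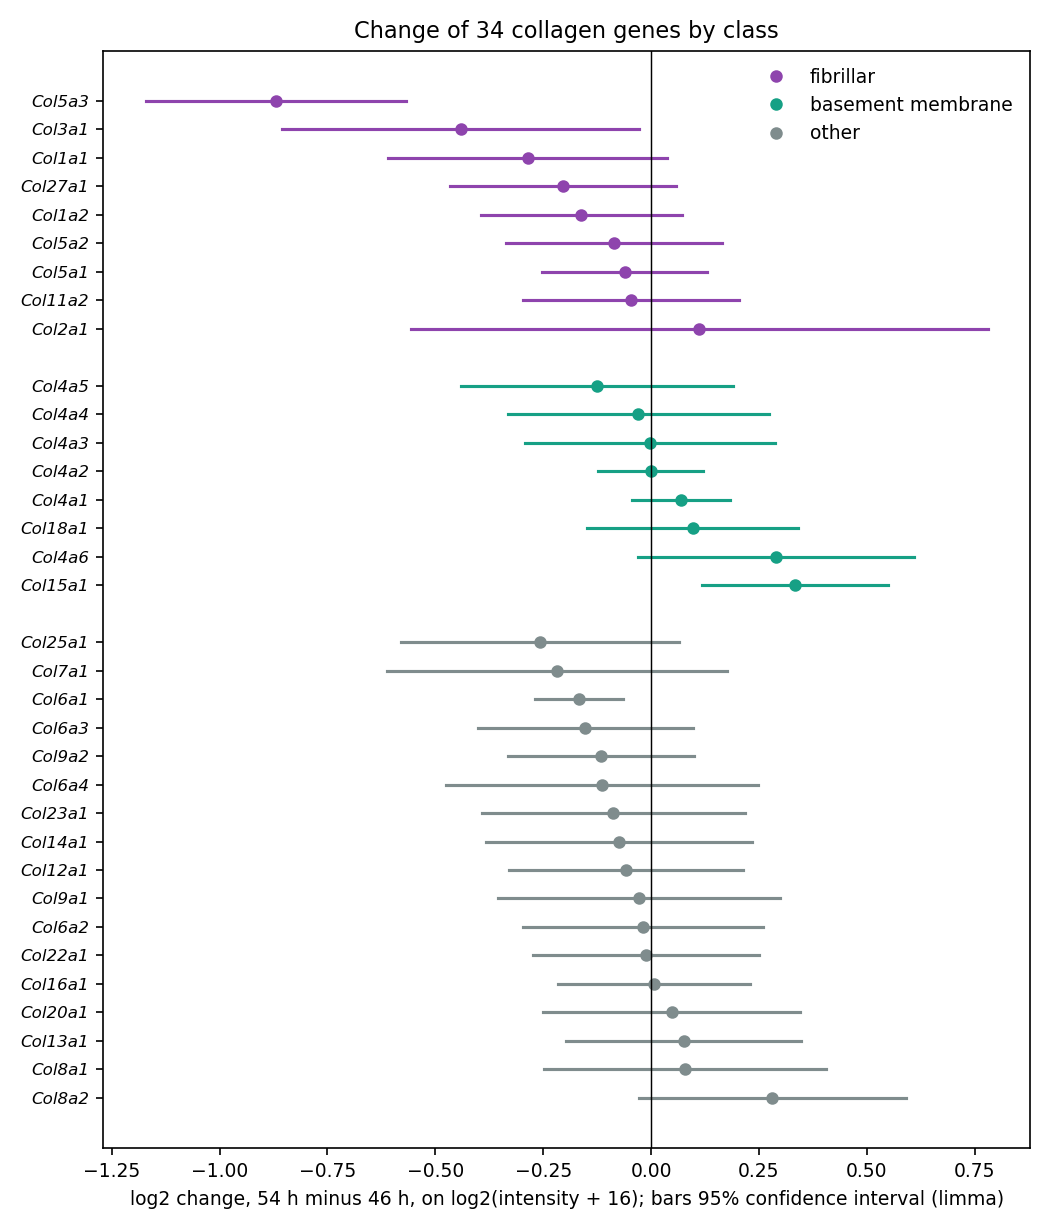
Log2 change of each of the 34 collagen genes tested, 54h minus 46h on log2(intensity + 16), read from the brightest probe set of each gene. Points are the change and bars the 95% confidence interval from limma (n = 3 arrays each), coloured by class; Col5a3 stands farthest to the left at -0.87, and the interval of most genes includes 0.

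The fibrillar collagens begin with type I, the chief collagen of capsules and tendons, whose molecule holds alpha-1 chains from Col1a1 and an alpha-2 chain from Col1a2. Col1a1 read 788, 687 and 717 units on the 54h arrays, against 954, 708 and 1053 units on the 46h arrays. Col1a2 read 2930, 2331 and 2604 units on the 54h arrays and 3249, 2595 and 2960 units on the 46h arrays. For both genes 46h replicate B lay among the 54h values, so the time points overlapped. The log2 change was -0.29 ± 0.14 SE for Col1a1 and -0.16 ± 0.10 SE for Col1a2 (adjusted p = 0.551 and 0.637 in limma).

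Type III collagen, from Col3a1 alone, forms thin fibrils with type I in vessel walls and organ stroma. Its bright probe set read 2194, 1462 and 1590 units on the 54h arrays, against 2780, 1790 and 2585 units on the 46h arrays. The mean was 1749 ± 391 units at 54h and 2385 ± 525 units at 46h (SD, n = 3 each). This is a log2 change of -0.44 ± 0.18 SE, which did not pass (adjusted p = 0.464 in limma). Here too 46h replicate B was below 54h replicate 1. In whole glands, fewer cells that make a collagen and less of its RNA per cell cannot be told apart.

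Col1a1, Col1a2 and Col3a1 had the same order of arrays within a time point in part: at 54h replicate 1 was the highest for all 3 genes, and at 46h replicate B was the lowest for all 3. Averaged over these 3 genes, the deviation from each gene's mean over the 6 arrays was 0.06, -0.31 and -0.20 on the 54h arrays and 0.31, -0.15 and 0.28 on the 46h arrays, on the log2 scale. The spread within each time point was therefore of the size of the difference between them. The bases before the start of Col1a2 and Col3a1 are shown because their values had a like order over the arrays. Col1a1 has no entry in the table used. The windows are the 250 bases before the annotated start in RefSeq, build GRCm38.p6, written 5′ to 3′ on the gene's strand. Capitals mark 4 motifs that were searched on both strands. The TATA box was taken as TATAAA and the CCAAT box as those letters. The GC box was taken as GGGCGG, and the E-box, the element that clock activators bind, as CACGTG. No matches overlap in the windows printed. Col1a2 lies at chr6:4505368-4505617 on the + strand and Col3a1 at chr1:45311288-45311537 on the + strand.
Col1a2: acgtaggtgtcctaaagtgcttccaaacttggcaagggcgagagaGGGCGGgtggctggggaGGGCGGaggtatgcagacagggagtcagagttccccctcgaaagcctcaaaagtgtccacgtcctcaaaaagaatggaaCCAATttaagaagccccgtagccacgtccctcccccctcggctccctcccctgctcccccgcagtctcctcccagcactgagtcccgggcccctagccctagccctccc
Col3a1: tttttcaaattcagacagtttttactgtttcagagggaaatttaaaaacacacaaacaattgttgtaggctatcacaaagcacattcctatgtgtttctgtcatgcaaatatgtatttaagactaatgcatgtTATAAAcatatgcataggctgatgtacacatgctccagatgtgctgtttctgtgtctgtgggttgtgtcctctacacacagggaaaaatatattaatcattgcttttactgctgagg
The Col1a2 window held 62.0% G and C, a CCAAT box and 2 GC boxes. The Col3a1 window held 35.2% G and C, a TATA box and none of the other motifs.

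Type V collagen is a minor fibrillar type that starts fibrils and limits their width, made of chains from Col5a1, Col5a2 and Col5a3. Col5a3 had the largest log2 change of all 34 genes. Its bright probe set, 1419703_at, read 412, 597 and 508 units on the 54h arrays, against 934, 878 and 972 units on the 46h arrays. All 3 arrays of 54h were far below all 3 of 46h. The mean was 506 ± 92.7 units at 54h, against 928 ± 47.4 units at 46h (SD, n = 3 each), that is 1.83-fold lower on the log2(intensity + 16) scale. The log2 change was -0.87 ± 0.13 SE with a 95% confidence interval of -1.17 to -0.57 and a limma adjusted p of 0.0583, just short of the threshold of 0.05. It passed with a filter at the 60th percentile (adjusted p = 0.0420 in limma), with a robust fit (0.0342), with array weights (0.00171) and without 54h replicate B (0.0387). Over all 17 alternatives its limma adjusted p ran from 0.00171 to 0.284.

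The second Col5a3 probe set, 1425984_at, did not show this difference. It read 167, 149 and 236 units on the 54h arrays, against 174, 178 and 182 units on the 46h arrays, a log2 change of 0.02 ± 0.16 SE (adjusted p = 0.980 in limma). The 95% confidence intervals of the 2 probe sets did not overlap. The gap between their changes was 0.89 (two-sided exact permutation p = 0.1, the smallest that 3 against 3 arrays allow). The smaller gaps of Col5a1 (0.29) and Col27a1 (0.21) had the same exact permutation p. Averaged over both probe sets, Col5a3 had a log2 change of -0.42 with a limma adjusted p of 0.253. Which part of the transcript each probe set reads was not given in the sources used here.

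Its partner chains were closer to 0. Col5a1 read 835, 889 and 852 units at 54h and 882, 920 and 888 units at 46h on its brightest probe set, with a log2 change of -0.06 ± 0.09 SE (adjusted p = 0.858 in limma). Its 2 dimmer probe sets were lower on every 54h array than on any 46h array. The first of these, 1434479_at, read 507, 614 and 523 units at 54h and 674, 719 and 714 units at 46h (log2 change -0.35 ± 0.11 SE, adjusted p = 0.312 in limma). The dimmest Col5a1 probe set had a log2 change of -0.26. Col5a2, whose chain occurs in most type V molecules, had a log2 change of -0.09 ± 0.11 SE, and its second probe set had -0.06. The Col5a3 window is shown as that of the gene with the largest change, at chr9:20815068-20815317 on the − strand, with the same motifs in capitals.
Col5a3: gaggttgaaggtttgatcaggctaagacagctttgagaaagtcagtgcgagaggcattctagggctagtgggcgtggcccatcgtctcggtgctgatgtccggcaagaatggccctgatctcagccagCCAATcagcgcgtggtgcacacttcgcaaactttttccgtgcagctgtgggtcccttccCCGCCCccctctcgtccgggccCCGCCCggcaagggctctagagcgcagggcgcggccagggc
It held 1 CCAAT box and 2 GC boxes on the reverse strand (CCGCCC), and no TATA box or E-box.

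**Figure D2:**
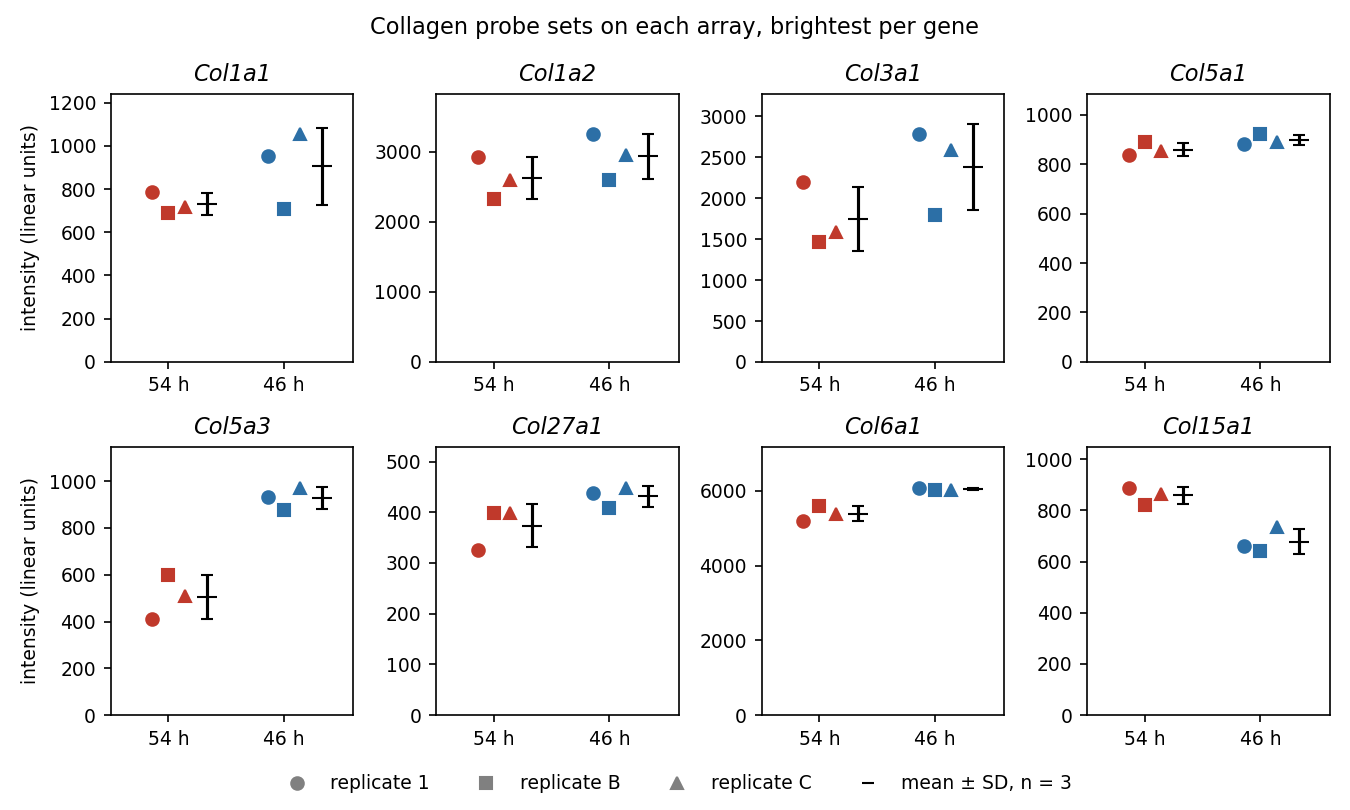
Intensity in linear units of 8 collagen genes on each array, brightest probe set per gene, with 54h to the left of 46h; symbols are replicates and black marks the mean ± SD (n = 3). Col5a3, Col27a1 and Col6a1 lie lower on every 54h array and Col15a1 higher, while Col1a1, Col1a2, Col3a1 and Col5a1 overlap between the time points.

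Type XXVII is a fibrillar collagen known from developing cartilage. Col27a1 read 325, 398 and 398 units on the 54h arrays, against 437, 409 and 448 units on the 46h arrays. The groups did not overlap, with a log2 change of -0.20 ± 0.12 SE (adjusted p = 0.594 in limma). On its second probe set the values were 237, 297 and 275 units at 54h and 391, 358 and 340 units at 46h, again without overlap (-0.41 ± 0.12 SE, adjusted p = 0.310 in limma). Type II and type XI are best known from cartilage. Col2a1 was the only fibrillar gene tested with a change above 0 (0.11 ± 0.30 SE), and its spread was the widest of all 34: it read 265, 186 and 311 units at 54h and 302, 301 and 130 units at 46h. Col11a2 had a log2 change of -0.05 ± 0.11 SE. Col11a1 and Col24a1 lay under the filter, with mean intensities of 109 and 8.36 units over the 6 arrays.

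Among basement membrane collagens, the log2 changes ran from -0.12 to 0.33. Type IV of most tissues, vessels included, is built of chains from Col4a1 and Col4a2. Col4a1 read 6147, 5681 and 5759 units on the 54h arrays, against 5816, 5440 and 5508 units on the 46h arrays. Col4a2 read 3546, 3630 and 3520 units at 54h and 3643, 3436 and 3625 units at 46h. The values of the time points overlapped for both genes. The log2 change of Col4a1 was 0.07 with a 95% confidence interval of -0.05 to 0.18, and its second probe set had 0.02. That of Col4a2 was below 0.01 in size, with an interval of -0.12 to 0.12. In the RefSeq table the 2 genes are neighbours on chromosome 8 on opposite strands, transcribed away from each other.

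The other type IV chains are known for restricted expression, as in the filtering membrane of the kidney. Col4a3 and Col4a4, neighbours on chromosome 1, had log2 changes with intervals of -0.29 to 0.29 and -0.33 to 0.27. Dimmer probe sets of both genes read lower at 54h: 1 for Col4a3, under the filter, had 114, 123 and 119 units at 54h and 162, 142 and 185 units at 46h, and 1 for Col4a4 had a log2 change of -0.23 ± 0.14 SE. Col4a5 and Col4a6 lie head to head on the X chromosome. The bright probe set of Col4a5 had a log2 change of -0.12 ± 0.14 SE and its dimmer one -0.36 ± 0.20 SE. Col4a6 read 231, 246 and 302 units at 54h and 220, 181 and 226 units at 46h, so that the lowest 54h array was above the highest 46h array. Its log2 change was 0.29 ± 0.14 SE (adjusted p = 0.535 in limma). The head-to-head pair on chromosome X thus lay on opposite sides of 0, though neither gene passed the test.

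Types XV and XVIII link basement membranes to the tissue around them, and type XVIII is the source of endostatin. Col15a1 had the highest log2 change among the 34 genes. It read 888, 820 and 865 units on the 54h arrays, against 662, 639 and 733 units on the 46h arrays. Every 54h array was above every 46h array, by 1.26-fold on average (log2 change 0.33 ± 0.10 SE, 95% confidence interval 0.12 to 0.55). Its limma adjusted p was 0.287, with a range of 0.0119 to 0.908 over the alternatives, and it passed only with array weights. The Col15a1 window is shown as that of the gene with the largest change above 0, at chr4:47207762-47208011 on the + strand.
Col15a1: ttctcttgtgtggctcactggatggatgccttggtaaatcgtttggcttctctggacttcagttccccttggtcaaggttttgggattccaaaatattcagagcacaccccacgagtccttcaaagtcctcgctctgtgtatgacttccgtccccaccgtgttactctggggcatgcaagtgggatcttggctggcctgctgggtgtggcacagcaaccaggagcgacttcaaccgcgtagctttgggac
None of the 4 motifs occurred in it, so it has no capitals. Col18a1 read 1687, 2248 and 2011 units at 54h and 1722, 1829 and 1979 units at 46h, which overlapped (log2 change 0.10 ± 0.11 SE). Its second probe set had 0.15 ± 0.09 SE.

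Windows before the start were given for 33 of the 42 collagen genes, 36 windows in all. A GC box was in 21 of the 36 (58.3%), against 32.7% of all 32851 windows of the same length. A CCAAT box was in 13 (36.1%, against 33.8%) and a TATA box in 5 (13.9%, against 12.4%). The E-box letters were in 0 of the 36 windows, against 6.02% of all windows. These matches describe letters in short windows and no binding was measured.

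Type VI forms beaded filaments close to cells in nearly all connective tissue, from chains of Col6a1, Col6a2 and Col6a3. Col6a1 read 5190, 5583 and 5380 units on the 54h arrays, against 6080, 6031 and 6022 units on the 46h arrays. The 46h arrays had an SD of 31.0 units, and all lay above the 54h arrays. The log2 change was small, -0.17 ± 0.05 SE, and the limma adjusted p was 0.266. Col6a2, its neighbour on chromosome 10, read 1605, 1208 and 1316 units at 54h and 1520, 1218 and 1434 units at 46h, with a log2 change of -0.02 on each of its 2 probe sets. Col6a3 had -0.15 ± 0.11 SE. The change of Col6a2 turned its sign with arrays centred on their medians, while Col6a1 was below 0 under every alternative run. Col6a4, whose chain resembles that of Col6a3, had -0.11 on its brighter probe set and 0.06 on the other.

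Of the collagens that sit on the surface of fibrils, those of types XII, XIV, XVI, XX and XXII had changes of at most 0.07 in size on their brightest probe sets. Col12a1 had a log2 change of -0.06, Col14a1 -0.07 on both of its probe sets above the filter, Col16a1 0.01, Col20a1 0.05 and Col22a1 -0.01, with limma adjusted p between 0.898 and 0.990. For 3 of these genes a dimmer probe set lay farther from 0. That of Col22a1 had a log2 change of 0.39 ± 0.18 SE, the highest of all 54 collagen probe sets tested (adjusted p = 0.515 in limma). That of Col20a1 had -0.21 ± 0.15 SE and that of Col12a1 -0.15 ± 0.13 SE. Type IX covers the fibrils of cartilage. Col9a2 read 1507, 1726 and 1492 units at 54h and 1546, 1722 and 1860 units at 46h (log2 change -0.12 ± 0.10 SE), and Col9a1 had -0.03 ± 0.15 SE. Col9a3 was under the filter. It read 86.7, 69.1 and 82.1 units at 54h and 225, 84.6 and 150 units at 46h, with 46h replicates 1 and C above the other arrays. Acan, the cartilage proteoglycan, averaged 1078 units at 54h and 1107 units at 46h, and 4 of the 7 measured cartilage and bone markers lay under the filter.

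Among the remaining types, Col8a1 and Col8a2 encode the short chains of type VIII, found around vessels. Col8a2 read 216, 196 and 183 units at 54h and 161, 139 and 183 units at 46h, with a log2 change of 0.28 ± 0.14 SE (adjusted p = 0.535 in limma), and Col8a1 had 0.08 to 0.09 on its 3 probe sets. Types XIII, XXIII and XXV span the cell membrane. Col25a1, known from brain and motor nerves, read 429, 484 and 390 units at 54h and 575, 425 and 575 units at 46h, a log2 change of -0.26 ± 0.14 SE with overlapping arrays. Col13a1 had 0.08 ± 0.12 SE and Col23a1 -0.09 ± 0.14 SE. Col7a1, which anchors epithelia to the tissue beneath, read 152, 131 and 114 units at 54h and 125, 195 and 154 units at 46h. Its log2 change of -0.22 ± 0.18 SE rested on values just above the filter.

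The 8 genes whose probe sets all lay under the filter were Col11a1, Col24a1, Col6a5, Col9a3, Col10a1, Col17a1, Col19a1 and Col26a1. Their brightest probe sets averaged between 8.36 and 139 units over the 6 arrays. The filter lay at 139 units as a geometric mean. Just inside it were a Col4a4 probe set at 141 units, Col7a1 at 143 and a Col8a1 probe set at 146. Just outside were Col19a1 at 139, a Col4a3 probe set at 139 and Col10a1 at 112. Levels of different genes are not compared, since each probe set has its own response.

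Probe sets of the same gene can be set side by side for 17 genes with at least 2 above the filter. In 13 of the 17 the changes had the same sign, and in 16 the 95% confidence intervals overlapped, Col5a3 being the exception. The median gap between the lowest and the highest change of a gene was 0.10, and 9 of 17 genes had a gap under 0.1. Col6a2, Col14a1 and Col8a1 had gaps of at most 0.01, and Col1a1 and Col1a2 of 0.05 and 0.07. After Col5a3 the widest gap was that of Col22a1, at 0.40, where a dimmer probe set read 181, 139 and 194 units at 54h and 105, 118 and 161 units at 46h. Next came Col5a1 at 0.29 and Col20a1 at 0.25. Signs differed within Col5a3, Col22a1, Col20a1 and Col6a4. Of the 82 collagen probe sets, 2 carry the suffix _x_at and 3 the suffix _s_at, which mark probes that may also match other transcripts.

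**Figure D3:**
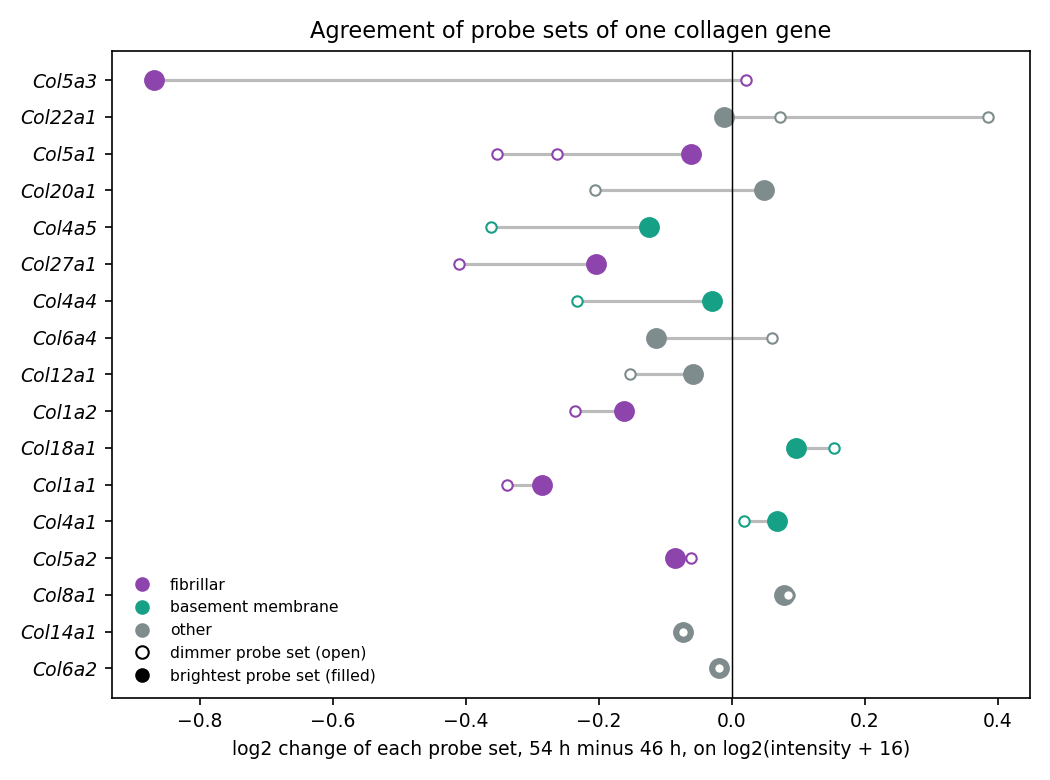
Log2 change, 54h minus 46h on log2(intensity + 16), of every probe set above the filter for the 17 collagen genes that have at least 2. Large filled points are the brightest probe set of a gene and small open points the dimmer ones, coloured by class; the probe sets of Col5a3 are 0.89 apart, those of Col6a2 and Col14a1 coincide.

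Per array, the fibrillar class stood lower on all 54h arrays. Its mean deviation over 9 genes was -0.08, -0.16 and -0.10 on the 54h arrays and 0.22, 0.03 and 0.09 on the 46h arrays, on the log2 scale. Col5a3 is among the 9 and weighs on these means, with a change of -0.87 on the probe set used and 0.02 on its second. Gene by gene, 7 of the 9 overlapped between the time points. The share without overlap was 22.2%, against 16.3% of all genes in either direction. The 2 genes without overlap were both lower at 54h, as were 1371 of all 13780 genes. Whether the class stands apart without Col5a3 was not tested. The basement membrane class had 0.04, 0.03 and 0.05 at 54h and -0.02, -0.16 and 0.06 at 46h, where 46h replicate B stood apart. The other class had 0.01, -0.06 and -0.02 at 54h and 0.07, -0.02 and 0.02 at 46h, within which the time points overlapped. The same quantity over 13 markers of fibroblasts, capsule and pericytes was 0.20, -0.17 and -0.00 at 54h and 0.01, -0.08 and 0.05 at 46h. These markers thus had 54h replicate 1 high and both replicates B low, as types I and III had. Their part in the collagen values was not tested.

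**Figure D4:**
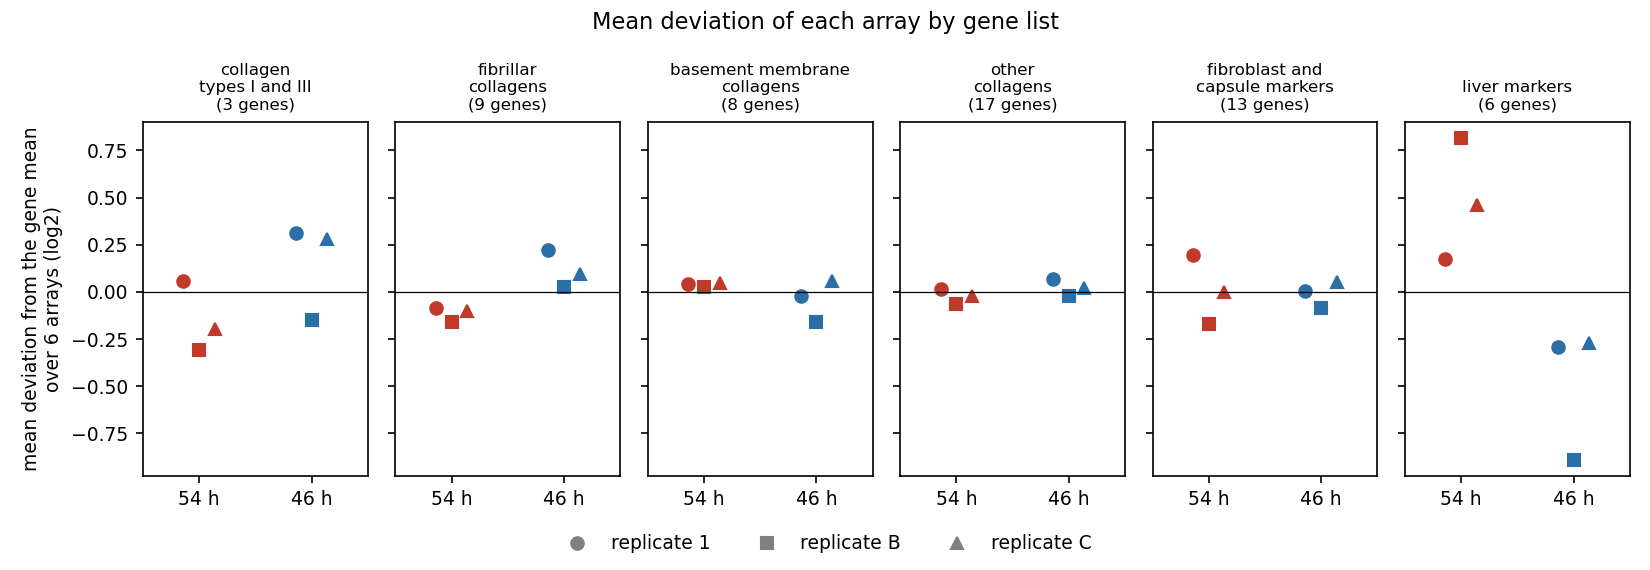
Mean deviation of each array from the gene means over 6 arrays, on the log2 scale, for collagen types I and III, the 3 collagen classes, the fibroblast and capsule markers and the liver markers, with 54h left of 46h. Symbols are replicates. The fibrillar class, which includes Col5a3 with the largest change, is below 0 on all 54h arrays and above 0 on all 46h arrays. Liver markers run from -0.89 to 0.81.

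Markers of other tissues that can adhere to a dissected gland, and of blood, also varied. Of 8 liver markers, 8 had a probe set and none averaged 0. Their summed level was 7347 to 11243 units at 54h and 3412 to 5347 units at 46h. Of 6 above the filter, 5 (83.3%) were higher on every 54h array, against 6.48% of all probe sets. Serpina1b, a secreted protease inhibitor of the liver, rose by 1.10 ± 0.14 SE on the log2 scale (adjusted p = 0.0343 in limma). Of 9 adipose markers, 7 had a probe set, with overlapping sums of 28584 to 36474 units at 54h and 27174 to 33522 units at 46h. The sums are mostly Fabp4 and Adipoq, and 3 of the 7 (42.9%) read higher on every 54h array, against 6.48% of all probe sets. These were Cidea, a lipid droplet protein (log2 change 0.67 ± 0.17 SE), Ucp1, the uncoupling protein of brown fat (0.56 ± 0.22 SE), and the hormone gene Lep (0.59 ± 0.19 SE), with limma adjusted p of 0.212, 0.436 and 0.337. For skeletal muscle, 7 of 7 markers had a probe set, with sums of 1944 to 2255 units at 54h and 1493 to 1603 units at 46h. These sums are mostly Eno3, which averaged 1533 units at 54h and 1078 units at 46h. Only 3 of the 7 lay above the filter. Of these, Eno3 and Myl1 read higher on every 54h array (66.7%, against 6.48% of all probe sets), while Ckm had -0.01 ± 0.13 SE with overlap. Of 4 blood markers, 3 had a probe set. Hbb-b2, a beta globin, read 765, 809 and 851 units at 54h and 323, 427 and 408 units at 46h. It passed the test (log2 change 1.04 ± 0.12 SE, adjusted p = 0.0288 in limma). Like that of Serpina1b, its probe set carries the suffix _x_at and may also match other transcripts. Alas2, the haem enzyme of red cell precursors, had 0.54 ± 0.17 SE without overlap, and the alpha globin gene Hba-a1 -0.30 ± 0.30 SE with overlap. The 10 endothelial markers summed to 19869 to 20636 units at 54h and 20350 to 23248 units at 46h. Of these 10, 3 had a log2 change above 0 and 7 below, with a median of -0.06 and a range of -0.26 to 0.09. Kdr and Eng, receptors of VEGF and of the TGF-beta family, read lower on every 54h array (-0.23 ± 0.05 SE and -0.26 ± 0.10 SE). Cdh5, a junction protein of vessels, had 0.09 ± 0.14 SE. In limma 0 of the 10 passed the adjusted threshold, and 2 (20%, against 10.3% of all genes) were at an unadjusted p under 0.05. The part of these tissues and of blood in the collagen values was not tested.

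Genes that fold, process, bind or degrade collagen were listed as well, 109 of them above the filter. Of these 0 passed limma over all probe sets, where 0.109% of all genes did by their brightest probe set. At an unadjusted p under 0.05, limma gave 16 of the 109 (14.7%, against 10.3% of all genes). These were 4 higher (4.11% of all genes were) and 12 lower (6.2% of all genes were). The count of lower genes was 7 with arrays centred on their medians, or 6.42% against 4.73% of all genes in that fit. It was 3 without 54h replicate C, or 2.75% against 2.92% of all genes in that fit, and 16 without 46h replicate B, or 14.7% against 6.68%. The median log2 change over the 109 was -0.04.

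Enzymes and chaperones of the endoplasmic reticulum come first in the making of collagen. Of 20 measured above the filter, 0 passed limma, and 1 was higher and 4 lower at an unadjusted p under 0.05. These made 25% of the 20, against 10.3% of all genes, and the lower ones 20%, against 6.2%. Plod2, a lysyl hydroxylase that prepares collagen for cross-links, read 2642, 3197 and 2871 units on the 54h arrays, against 3356, 3473 and 3442 units on the 46h arrays (log2 change -0.24 ± 0.07 SE, adjusted p = 0.332 in limma). P3h2, a prolyl 3-hydroxylase known to act on type IV collagen, read 417, 428 and 472 units at 54h and 331, 362 and 272 units at 46h (0.44 ± 0.13 SE, adjusted p = 0.302 in limma). Its relative P3h3 had -0.31 ± 0.12 SE. Serpinh1, the collagen chaperone HSP47, had -0.20 ± 0.12 SE and P4ha1, a prolyl 4-hydroxylase subunit, -0.04 ± 0.09 SE.

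The list of genes that trim and cross-link secreted collagen had 10 entries above the filter, with Loxl3 counted more than once. Of the 10 entries, 0 passed and 1 (10%, against 6.2% of all genes) was lower at an unadjusted p under 0.05 in limma. This was Bmp1, the protease that removes the C-terminal propeptide, at 1220, 1082 and 1218 units at 54h and 1346, 1423 and 1300 units at 46h (log2 change -0.21 ± 0.09 SE, adjusted p = 0.469 in limma). Tll2, a related protease, had -0.25 ± 0.13 SE and the cross-linking oxidase Lox 0.19 ± 0.14 SE.

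Partners of fibrils numbered 26, with 1 higher and 3 lower at an unadjusted p under 0.05 in limma and 0 past the adjusted threshold. Those at the unadjusted level made 15.4%, against 10.3% of all genes. Tnc, the matrix glycoprotein tenascin C, read 476, 439 and 390 units at 54h and 344, 259 and 350 units at 46h (0.44 ± 0.14 SE, adjusted p = 0.334 in limma). Fbln2, a fibulin of elastic fibres, read 250, 239 and 247 units at 54h and 359, 278 and 379 units at 46h (-0.43 ± 0.13 SE, adjusted p = 0.332 in limma). Dcn, the proteoglycan that binds type I fibrils, read 9139, 9172 and 9094 units at 54h and 9798, 8986 and 9985 units at 46h, with a log2 change of -0.07 ± 0.04 SE. Among 14 basement membrane partners 1 was higher and 0 lower at that level (7.14%, against 10.3% of all genes). This was Lamc1, a laminin chain of most basement membranes. It read 964, 747 and 803 units at 54h and 654, 574 and 728 units at 46h (0.35 ± 0.13 SE, adjusted p = 0.398 in limma). Nid1, which ties laminin to type IV collagen, had 0.04 ± 0.10 SE, and Lama3, a laminin chain of epithelia, -0.26 ± 0.12 SE.

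None of 7 collagen receptors reached an unadjusted p of 0.05 in limma, where 10.3% of all genes did. Ddr2, a receptor kinase for fibrillar collagens, had a log2 change of 0.21 ± 0.14 SE and Ddr1 -0.13 ± 0.09 SE. Of 17 genes of collagen breakdown and its inhibitors, 1 was higher and 3 lower at that level (23.5%, against 10.3% of all genes), and 0 passed. Timp1, an inhibitor of matrix metalloproteinases, read 2357, 2465 and 2332 units on the 54h arrays, against 1806, 1980 and 1899 units on the 46h arrays. Every 54h array was above every 46h array (0.33 ± 0.07 SE), and its limma adjusted p of 0.136 was the lowest among the related genes. Ctsl, a lysosomal cysteine protease, was lower on every 54h array (-0.14 ± 0.04 SE, adjusted p = 0.306 in limma), and the gelatinase Mmp2 had 0.02 ± 0.11 SE. Of 16 profibrotic signalling genes 1 (6.25%, against 6.2% of all genes) was lower at that level and 0 passed. This was Ccn2, a matrix-inducing factor downstream of TGF-beta. It read 3545, 3495 and 3550 units at 54h and 4558, 3527 and 4171 units at 46h, which overlapped. Its log2 change was -0.20 ± 0.09 SE (adjusted p = 0.477 in limma). Tgfbr3, a coreceptor for TGF-beta, had -0.16 ± 0.08 SE and the ligand gene Tgfb1 -0.03 ± 0.11 SE.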

How the data were processed

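Total RNA of 6 whole adrenal samples was labelled with biotin and hybridised to Affymetrix mouse arrays, per the labels' protocols. The authors deposited 1 linear intensity per probe set and array; how it was summarised, corrected for background and scaled is not given in the sources used here. Of 45001 probe sets, 64 controls, 1 without values and 1 with a damaged value were left out. Genes were named from the platform's annotation where it gave exactly 1 (34848 probe sets), and all 82 collagen probe sets had their gene ID in a RefSeq table.

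Values were taken as log2(intensity + 16), and probe sets with a mean log2 value above the 40th percentile (26961) were fitted with limma's lmFit and eBayes, eBayes having a trend in intensity (limma 3.58.1, R 4.3.3). Tests had 2 sides, and p-values were adjusted by Benjamini and Hochberg's method over every probe set fitted, at 0.05. The fit was run on simulated data with noise drawn independently for each value. That simulation held no correlation between arrays, so it cannot show how the fit performs where arrays are correlated. Alternatives covered scaling, offset, filter, the variance model, array weights, a replicate block, the probe set standing for a gene, class membership and leaving out each array. Python 3.11.15 and matplotlib 3.10.9 made tables and plots. No label names the animals, so p-values measure the spread between samples, which may be technical.

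Every collagen gene tested is given. Values per array are given for those at an unadjusted p of 0.05, the 3 largest changes each way and well-known chains, and for a few more chosen after their values were seen. The 2 related genes with the smallest p in each list and 1 or 2 well-known ones are named; P3h3, the non-brightest probe sets and the markers of other tissues were added after their values were seen. The members and lists were chosen with earlier results of these data known.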

Additional observations from a re-analysis of the deposited data

How the results depend on the processing

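The arrays number 3 per time point, which limits every comparison here, and the scale on which the authors summarised the probes is unknown. The leading collagen result, the lower level of Col5a3 at 54h, sits at the threshold: its log2 change was below 0 under all 17 alternatives, from -0.99 without 54h replicate B to -0.73 without 54h replicate 1 among the arrays left out, and 4 of the 17 put it past the threshold. Averaged over its probe sets the change was -0.42 (adjusted p = 0.253 in limma), and its second probe set alone had 0.02 with an interval that did not overlap that of the first. Genes with low mean intensity could not be judged. Of the 34 collagen genes tested, 20 kept the sign of their change under every alternative and 14 did not, and 7 passed the limma threshold under at least 1 alternative, 6 of them only with array weights. The cause of the differences below was not tested.

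In the main fit the letters were not used to pair the arrays. Over the 26961 probe sets tested, deviations of the arrays named 1, B and C at both times correlated at -0.06, -0.41 and -0.49. For arrays of different names the correlations ran from -0.04 to 0.46, the highest for 54h replicate C with 46h replicate B. They cannot settle whether arrays of the same letter were handled together. With a replicate block, 0 collagen probe sets passed limma and the adjusted p of Col5a3 was 0.0703. That fit put 45 of all probe sets past the threshold, in place of 31. It gave 7 related genes, in place of 12, a change below 0 with a limma p under 0.05 before adjustment. The 7 made 6.42% of the related genes, against 3.85% of all genes in the same fit. In the main fit the shares were 11% and 6.2%.

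All probe sets past the threshold numbered 27 with no filter, 48 with a filter at the 60th percentile, 3 without a trend, 61 with a robust fit, 3466 with array weights, 47 with quantile normalization, 50 with centring, and 2 to 66 with 1 array left out, the fewest without 54h replicate C and without 46h replicate 1. Collagen probe sets lower at an adjusted p of 0.05 numbered 1 with a filter at the 60th percentile, 1 with a robust fit, 9 with array weights (with 4 higher), and 0 to 1 with 1 array left out. At an unadjusted p of 0.05, limma put 4 collagen probe sets higher with centring, 3 with no filter, 2 without a trend, 5 with array weights (9.26%, against 13.8% of all probe sets) and 1 to 3 with 1 array left out. The other shares higher were 7.41% against 6.41% with centring, 3.66% against 4.26% with no filter, and 3.7% against 3.93% without a trend. It put 8 lower with no filter (9.76%, against 4.76% of all probe sets in that fit), 17 with array weights (31.5%, against 18.1%), and 4 to 13 with 1 array left out. The 13 came without 46h replicate B (24.1%, against 6.49%). With 1 array left out, the shares lower ran from 7.41% to 24.1%, against 2.77% to 7.83% of all probe sets. The shares higher then ran from 1.85% to 5.56%, against 2.46% to 6.51%.

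The fibrillar median of -0.16 was -0.085 with no filter and ran from -0.24 without 46h replicate B to -0.086 without 46h replicate 1. That of other collagens ran from -0.087 to 0.0047 with 1 array left out. With type IV alone as basement membrane, the median of that class was -0.0018 in place of 0.03. Among related genes, limma with array weights gave 15 past the adjusted threshold (13.8%, against 12.7% of all genes in that fit). Its counts at an unadjusted p of 0.05 were 7 higher (6.42%, against 13.3% of all genes) and 31 lower (28.4%, against 18.5%). With 1 array left out, 3 to 7 were higher at that level, or 2.75% to 6.42% against 2.29% to 6.25% of all genes. Those lower then numbered 3 to 16, or 2.75% to 14.7% against 2.92% to 8.3%. Lower genes numbered 7 with centring (6.42%, against 4.73% of all genes) and 7 without a trend (6.42%, against 5.22%). The median of processing and cross-linking genes was 0.02, against -0.031 with a filter at the 60th percentile, -0.032 with array weights and -0.050 to 0.053 with 1 array left out. The median of breakdown genes was 0.00, against -0.044 with no filter, -0.11 with array weights and -0.066 to -0.011 with 1 array left out. The median of profibrotic genes was -0.094 with array weights and -0.072 to -0.022 with 1 array left out. That of basement membrane partners was -0.11 with the mean over probe sets.

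Genes near 0 turned sign. Quantile normalization gave 0.0049 for Col4a2, 0.011 for Col4a3 and 0.0061 for Col22a1. Centring gave 0.026 for Col4a2, 0.024 for Col4a3, 0.0082 for Col6a2 and 0.015 for Col22a1. Array weights gave 0.041 for Col4a3, 0.015 for Col9a1, -0.011 for Col16a1 and 0.013 for Col22a1. The mean over probe sets gave -0.079 for Col20a1 and 0.15 for Col22a1. With 1 array left out, the log2 change ran from -0.028 to 0.014 for Col4a2, -0.058 to 0.091 for Col4a3, -0.12 to 0.065 for Col4a4, -0.26 to 0.31 for Col2a1, -0.11 to 0.013 for Col11a2, -0.13 to 0.069 for Col6a2 and -0.28 to 0.031 for Col6a4. It ran from -0.0044 to 0.23 for Col8a1, -0.15 to 0.078 for Col9a1, -0.00085 to 0.16 for Col13a1, -0.19 to 0.039 for Col14a1, -0.064 to 0.052 for Col16a1, -0.049 to 0.16 for Col20a1 and -0.087 to 0.047 for Col22a1.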
